A study of Mus musculus with 6 samples.

Results

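Abca1 and 9 further genes known as targets of the liver X receptors were followed across 6 arrays of the mouse embryonic stem cell line RW4. The 10 genes were Abca1, Abcg1, Srebf1, Mylip, Lpcat3, Scd1, Scd2, Apoe, Pltp and Nr1h3, out of 19938 genes with a named probe set. Abca1 was picked because of its difference between cells given 4-hydroxytamoxifen (4OHT) and untreated cells, so its values are a description and carry no test. The other 9 were taken as known targets of the same receptors, but with earlier results of these data known. Counts over them, set beside shares of all genes below, are therefore descriptive. Each had 1 probe set with a single gene symbol, so no choice between probe sets was needed.

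The arrays formed 3 groups of 2: cells with no treatment, cells given 1 µM 4OHT and cells given 1 µM Shld1. 4OHT binds the estrogen receptor and is used to switch on proteins fused to ERT2, a mutated estrogen receptor domain; Shld1 keeps proteins with an unstable FKBP domain from being degraded. Per the labels, 4OHT belonged to an ERT2 induction system, Shld1 to an FKBP induction system, and the untreated cells were entered as WT. The labels do not say whether the treated cells carried such a fusion, how long they were treated, or whether the duplicates of a group were separate cultures; the p-values therefore speak of the spread among these 6 arrays, which may be technical. All groups were kept undifferentiated on gelatin with leukemia inhibitory factor, and every RNA was treated with DNase. The medium of every group held newborn calf serum (10%) and fetal bovine serum (10%), which supply lipoprotein cholesterol.

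Liver X receptors are nuclear receptors that bind oxysterols and the cholesterol precursor desmosterol. They sit on DNA as a heterodimer with a retinoid X receptor and act on genes that move cholesterol out of the cell, load it onto lipoproteins, lower its uptake and make and remodel fatty acids. In mouse cells Abca1 is among their best known targets. The genes of cholesterol synthesis are under a different factor, SREBP2, which is active when sterols are scarce, so both sets read the sterol state of a cell from opposite sides.

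The response element of the receptors is a direct repeat, 2 copies of AGGTCA read in the same direction with 4 bases between them. It was searched on both strands of the RefSeq promoter windows of build GRCm38.p6, each 300 bases long with 250 before and 50 after a gene's start, and any overlap with another motif was allowed. Of the 10 genes, 7 had such windows (12 in all), and Abcg1, Scd1 and Scd2 were not in the table used. Repeats with at most 2 mismatches among the 12 letters were in 3.02% of all 32851 windows and in 0 of the 12. At 3 mismatches, a limit set after the windows had been seen, the share of all windows was 21.9%, and 2 of the 12 windows matched, 1 of Abca1 and 1 of Srebf1. The exact AGGTCA was in 16.3% of all windows and in 0 of the 12.

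The windows of Abca1, Srebf1 and Fasn are shown because the 12 repeat letters of the Abca1 match were found in 3 of the 32851 windows, and those were the windows of these genes. Fasn encodes fatty acid synthase and was on the list of further receptor targets described below. Liver X receptor elements in the Abca1, Srebf1 and Fasn promoters are known from earlier work. Each sequence is printed on the strand of its gene; the capitals mark the 12 repeat letters, which read as the element on the opposite strand.
Abca1: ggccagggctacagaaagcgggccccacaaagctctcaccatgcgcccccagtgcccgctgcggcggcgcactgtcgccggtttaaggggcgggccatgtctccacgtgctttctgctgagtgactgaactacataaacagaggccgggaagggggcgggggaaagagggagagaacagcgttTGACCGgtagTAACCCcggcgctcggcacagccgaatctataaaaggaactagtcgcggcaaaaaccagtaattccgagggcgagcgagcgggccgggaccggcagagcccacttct
Srebf1: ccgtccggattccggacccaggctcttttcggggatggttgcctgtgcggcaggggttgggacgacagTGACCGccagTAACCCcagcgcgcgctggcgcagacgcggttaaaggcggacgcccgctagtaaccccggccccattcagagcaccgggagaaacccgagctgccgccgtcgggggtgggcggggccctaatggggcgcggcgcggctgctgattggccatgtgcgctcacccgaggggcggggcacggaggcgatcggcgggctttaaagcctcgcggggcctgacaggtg
Fasn: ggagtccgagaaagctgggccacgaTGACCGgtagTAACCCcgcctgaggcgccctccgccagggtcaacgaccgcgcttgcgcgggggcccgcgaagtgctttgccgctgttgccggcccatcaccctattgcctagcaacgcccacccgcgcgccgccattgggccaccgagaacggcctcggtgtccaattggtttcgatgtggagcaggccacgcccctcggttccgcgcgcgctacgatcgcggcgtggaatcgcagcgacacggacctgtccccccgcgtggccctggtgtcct
The Abca1 window is chr4:53159846-53160145 (minus strand), the Srebf1 window chr11:60210422-60210721 (minus strand, the most downstream of its 3 starts in the table) and the Fasn window chr11:120824498-120824797 (minus strand).

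Read on the element's own strand, the match was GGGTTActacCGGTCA in Abca1 and in Fasn and GGGTTActggCGGTCA in Srebf1. Counted from 1 at the 5′ end of the element, the letters differed from the perfect repeat by A1G, C5T and A11C in Abca1 and in Srebf1. The Srebf1 spacer differed from that of Abca1 by A9G and C10G. The match lay from base -67 to -52 before the start of Abca1, from -182 to -167 in Srebf1 and from -225 to -210 in Fasn. The Abca1 window also held the E-box CACGTG at -147 (7.15% of all windows hold one), GGGCGG at -163 and -97 (35.7%) and TATAAA at -29 (13.6%), and 62.7% of its bases were G or C against a median of 52.7% over all windows. On the arrays the 3 genes with the shared repeat had 4OHT differences of both signs. The log2 difference from untreated cells was 1.00 for Abca1, 0.21 for Srebf1 and -0.25 for Fasn.

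ABCA1 is the membrane transporter that hands cholesterol and phospholipid to lipid-poor apolipoprotein A-I. Its log2 signal was 4.87 and 4.96 on the untreated arrays, 5.81 and 6.03 with 4OHT, and 5.16 and 5.02 with Shld1. Both 4OHT arrays stood above the other 4 arrays, and both Shld1 arrays lay between the untreated arrays and the 4OHT arrays. The group means were 4.92 ± 0.06 on the untreated arrays, 5.92 ± 0.15 with 4OHT and 5.09 ± 0.10 with Shld1 (SD, n = 2 each). The difference of 4OHT from untreated was 1.00 on the log2 scale (SE 0.149), a 2.005-fold higher signal, with 0.85 to 1.16 over the 4 pairs of arrays. Against Shld1 the 4OHT arrays were higher by 0.83 (SE 0.149; 1.78-fold), with 0.65 to 1.01 over the pairs. Shld1 stood 0.17 above untreated (SE 0.149), 0.05 to 0.29 over the pairs, which is near the size of the standard error. With each array left out in turn, the 4OHT difference from untreated was 0.90 to 1.11. Abca1 was chosen on this difference, so the range describes these arrays and is no test of it. In bulk RNA, more cells using a gene and more RNA per cell cannot be told apart.

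**Figure D1:**
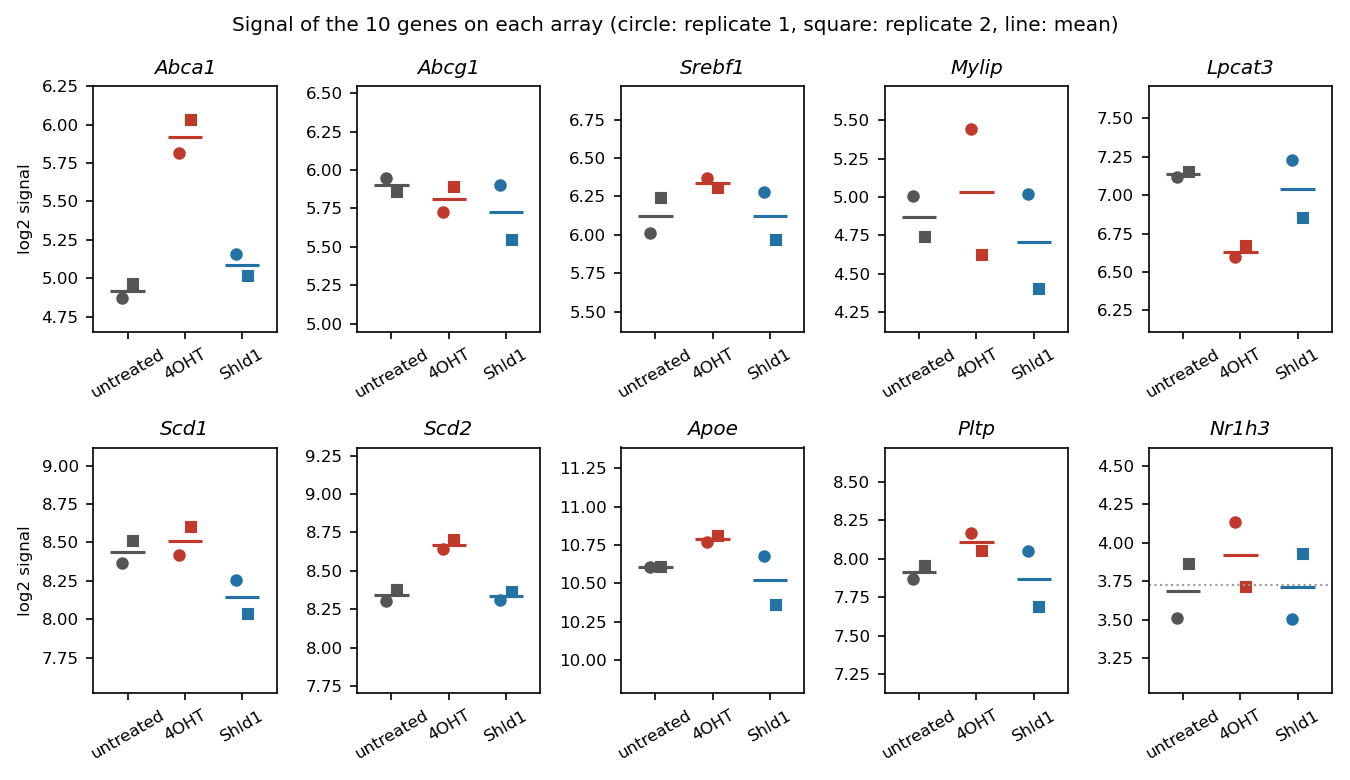
Log2 signal of each of the 10 genes on the 6 arrays, with untreated cells in grey, 4OHT in red and Shld1 in blue; circles are replicate 1, squares replicate 2 and lines the group mean. Every panel spans the same log2 range around its own gene, and the dotted line is the background level of 3.73. Abca1 has the widest separation of its 4OHT arrays, 5.81 and 6.03 against 4.87 to 5.16 elsewhere, and Lpcat3 is lower on both 4OHT arrays than on the other 4.

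ABCG1, the second cholesterol exporter of the set, passes cholesterol on to mature high-density lipoprotein particles. Its signal was 5.95 and 5.86 on the untreated arrays, 5.73 and 5.89 with 4OHT, and 5.90 and 5.54 with Shld1. The 3 groups overlapped, and the 4OHT difference from untreated was -0.09 (95% interval -0.46 to 0.27, adjusted p = 0.98). The interval leaves out a rise of the size measured for Abca1, a gene that was chosen on that difference.

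Apoe and Pltp encode the lipoprotein side of the pathway. Apolipoprotein E is secreted and accepts cellular cholesterol, and phospholipid transfer protein moves phospholipid between lipoproteins. Apoe read 10.61 and 10.60 on the untreated arrays, 10.77 and 10.81 with 4OHT, and 10.68 and 10.36 with Shld1. Both 4OHT arrays were above the other 4, by little: the difference from untreated was 0.18 (95% interval -0.16 to 0.53, adjusted p = 0.96) and from Shld1 0.27 (-0.07 to 0.61, adjusted p = 0.90). Pltp read 7.87 and 7.96 on the untreated arrays, 8.17 and 8.05 with 4OHT, and 8.05 and 7.68 with Shld1. Its 4OHT arrays were above both untreated arrays, by 0.19 (-0.17 to 0.56, adjusted p = 0.96), but overlapped the Shld1 arrays.

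Srebf1, Scd1 and Scd2 form the fatty acid arm. Srebf1 encodes SREBP1, the transcription factor of fatty acid synthesis, and the stearoyl-CoA desaturases SCD1 and SCD2 put the double bond into oleate and palmitoleate. Srebf1 read 6.01 and 6.24 on the untreated arrays, 6.37 and 6.30 with 4OHT, and 6.28 and 5.97 with Shld1. Both 4OHT arrays lay just above the other 4, the difference being 0.21 from untreated (95% interval -0.15 to 0.57, adjusted p = 0.96) and 0.21 from Shld1 (-0.15 to 0.57, adjusted p = 0.93). A gene-level probe set does not separate the SREBP1a and SREBP1c transcripts, which start at different promoters.

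Scd2 read 8.30 and 8.37 on the untreated arrays, 8.64 and 8.70 with 4OHT, and 8.31 and 8.36 with Shld1. The Shld1 arrays lay within the untreated ones, and both 4OHT arrays were 0.26 to 0.40 above untreated in every pair. The difference was 0.33 from untreated (95% interval 0.02 to 0.64, 1.26-fold, adjusted p = 0.96) and 0.34 from Shld1 (0.03 to 0.64, adjusted p = 0.87). Against untreated it was the second highest difference of the 10 genes, after Abca1. It did not pass the adjusted threshold of 0.05 in either comparison. 

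Scd1 had another order. It read 8.37 and 8.51 on the untreated arrays, 8.42 and 8.60 with 4OHT, and 8.25 and 8.03 with Shld1. The untreated and 4OHT arrays overlapped (difference 0.07, 95% interval -0.27 to 0.41, adjusted p = 0.99). Both Shld1 arrays were the lowest of the 6, by -0.30 against untreated (-0.64 to 0.05, adjusted p = 1.00). The 4OHT arrays were 0.37 above the Shld1 arrays (0.02 to 0.71, adjusted p = 0.87).

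Lpcat3 was lower on the 4OHT arrays. LPCAT3 builds polyunsaturated fatty acids into membrane phospholipids and is a known receptor target in mouse liver and macrophages. Its signal was 7.12 and 7.15 on the untreated arrays, 6.60 and 6.67 with 4OHT, and 7.23 and 6.85 with Shld1. Both 4OHT arrays were below the other 4, and the SDs of the untreated and 4OHT pairs were 0.02 and 0.05. The 4OHT difference was -0.50 from untreated (95% interval -0.86 to -0.14, adjusted p = 0.96) and -0.41 from Shld1 (-0.76 to -0.05, adjusted p = 0.87). Its unadjusted p of 0.011 in the first comparison was the lowest among the 9 genes tested. Lpcat3 was thus the 1 gene of the 10 below the other arrays in 4OHT, where Abca1, Srebf1, Scd2 and Apoe were above them.

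Mylip encodes IDOL, a ubiquitin ligase that lowers the uptake of cholesterol. It read 5.01 and 4.74 on the untreated arrays, 5.45 and 4.62 with 4OHT, and 5.02 and 4.40 with Shld1. The SDs of its 3 groups, 0.19, 0.58 and 0.44, were the widest of the 10 genes with 4OHT and with Shld1. Its 4OHT difference from untreated was 0.16 (95% interval -0.45 to 0.78, adjusted p = 0.98), the widest interval of the 10 genes. Without the first 4OHT array it was -0.25, and without the second 0.57, so these arrays give it no direction.

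Nr1h3 encodes LXRα, the receptor that induces its own gene in human cells. Its signal was 3.51 and 3.86 on the untreated arrays, 4.13 and 3.71 with 4OHT, and 3.51 and 3.92 with Shld1. It passed the background level of 3.73, the 95th percentile of 1015 olfactory receptor genes, on 3 of the 6 arrays; the other 9 genes passed it on all 6. The groups overlapped, with a 4OHT difference from untreated of 0.24 (95% interval -0.23 to 0.70, adjusted p = 0.96). LXRβ (Nr1h2), the form known from most cell types, was not analysed here. Of the partner receptors, Rxra had a mean of 5.67 and Rxrb of 6.18, above the background level, and Rxrg of 2.79, below it.

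In 4OHT-treated cells, 8 of the 10 genes were higher and 2 (Abcg1, Lpcat3) lower than on the untreated arrays, with a median difference of 0.19. Over all 19938 genes the median was -0.009, and over the 12815 genes above the background level -0.036. Without Abca1 the count was 7 of 9 and the median 0.18. At an adjusted p under 0.05, 0 of the 9 tested genes were called (limma), as were 0% of all genes. At an unadjusted p under 0.05 the count was 2 of 9 (Lpcat3, Scd2), against 995 genes or 4.99% of all. Leaving out Abca1, which was chosen on this difference, both 4OHT arrays were above both untreated arrays for 4 of 9 (Srebf1, Scd2, Apoe, Pltp) and below them for 1; over all genes the shares were 17.3% and 20.4%. The 4OHT group had the highest mean of the 3 for 7 of these 9, beside 32.4% of all genes. Both 4OHT arrays were above all other 4 arrays for 3 of the 9 and below them for 1, where 6.66% and 7.7% of all genes were.

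With Shld1, against untreated cells, 2 of the 10 genes were higher (Abca1 and Nr1h3) and 8 lower, with a median of -0.065 beside -0.004 over all genes. The 9 tested genes ran from -0.30 (Scd1) to 0.03 (Nr1h3). For the 9 tested genes 0 were called (adjusted p = 1.00 for each, limma), as were 0% of all genes, and 0 had an unadjusted p under 0.05, against 866 genes or 4.34%. The Shld1 arrays did not overlap the untreated arrays for Abca1, which was higher (15.2% of all genes were), and for Scd1, which was lower (17.3%). This count leaned on 1 array. Shld1 replicate 2 was the lowest of the 6 arrays for 6 of the 10 genes (Abcg1, Srebf1, Mylip, Scd1, Apoe, Pltp), as it was for 28.8% of the genes above background. Without it, 6 of the 10 genes were higher than on the untreated arrays, and after quantile normalization 5 were.

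4OHT against Shld1 gave 9 of 10 genes higher, Lpcat3 being lower, with a median of 0.25 against -0.004 over all genes. Without Abca1, chosen on the same 4OHT arrays, 8 of 9 were higher and the median was 0.24. Again 0 of the 9 tested genes were called (adjusted p of 0.87 to 0.98, limma), as were 0% of all genes. Those with an unadjusted p under 0.05 were Lpcat3, Scd1 and Scd2, 3 of 9, against 1117 genes or 5.6% of all. Both 4OHT arrays were above both Shld1 arrays for 4 of these 9 (Srebf1, Scd1, Scd2, Apoe; 14.9% of all genes) and below them for 1 (15.6%). Without 4OHT replicate 1 and Shld1 replicate 2, the arrays of narrower range, 6 of the 10 were higher and the median was 0.078. The comparisons share arrays: the untreated pair serves both agents, the 4OHT pair stands in the first and the third comparison, and the Shld1 pair in the second and the third.

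**Figure D2:**
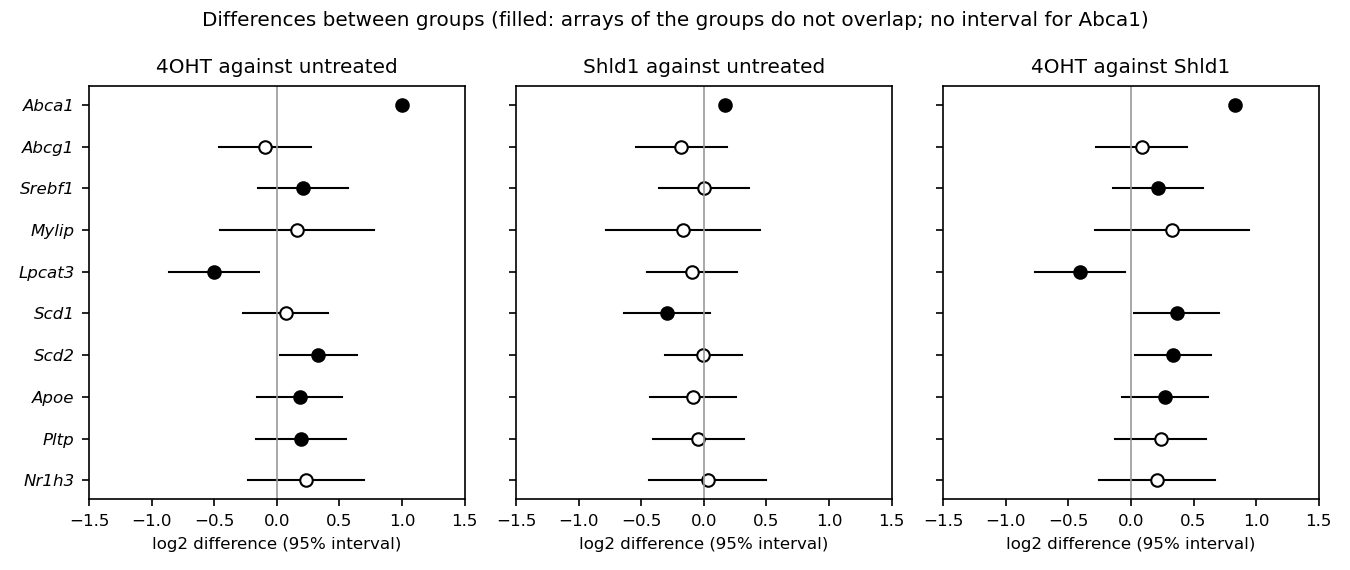
Difference in log2 signal between groups for each of the 10 genes, in 3 panels for 4OHT against untreated, Shld1 against untreated and 4OHT against Shld1. Bars are 95% intervals from the limma fit, filled points mark genes whose arrays do not overlap between the groups, and Abca1, chosen on its difference, is drawn without an interval. Abca1 stands at 1.00, 0.17 and 0.83, Lpcat3 at -0.50, -0.10 and -0.41, and the other 8 between -0.30 and 0.37.

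The arrays themselves differed. The SD over all probe sets was 2.29 on 4OHT replicate 1 and 2.24 on Shld1 replicate 2, against 2.33 to 2.35 on the other 4 arrays, and the SD of the difference between replicates was 0.216 on the untreated arrays, 0.264 with 4OHT and 0.318 with Shld1. The 10 markers of pluripotent cells were all above background, with array means of 9.80 to 10.00 (lowest on Shld1 replicate 2). Of 10 fibroblast markers 5 were above background (array means of 3.56 to 3.79, highest on 4OHT replicate 1), of 10 primitive endoderm markers 9 (5.19 to 5.27), of 10 trophoblast markers 6 (4.22 to 4.31) and of 10 macrophage markers 1, Cd68 (3.07 to 3.24). With 4OHT, 7 of the 10 fibroblast markers were higher than in untreated cells (median 0.124), beside 47.8% of all genes. Of the 10 macrophage markers 7 were higher too (median 0.022). The fibroblast marker means were 3.652 and 3.585 on the untreated arrays and 3.794 and 3.557 with 4OHT. On 4OHT replicate 2 the mean was thus below both untreated arrays. Abca1 read 5.81 and 6.03 on the 4OHT arrays. The part of the fibroblast markers in the Abca1 difference was not tested. The part of the array range in the results of the other 9 genes was not tested beyond the alternatives named.

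Further known targets of the receptors were looked at next, 24 of a list of 27, and 13 of the 24 were above background. In 4OHT-treated cells 15 were higher and 9 lower (median 0.058), and with Shld1 13 were higher and 11 lower (median 0.006), with 0 called in either comparison. Over all genes 47.8% were higher with 4OHT and 48.9% with Shld1. After quantile normalization the 4OHT count of these targets was 12 and 12. Fasn read 7.60 and 7.69 on the untreated arrays, 7.38 and 7.41 with 4OHT, and 7.67 and 7.50 with Shld1. Its difference with 4OHT was -0.25 (95% interval -0.57 to 0.07, limma adjusted p = 0.96), and both 4OHT arrays were below the other 4. Vegfa, the vascular growth factor, was at -0.42 with 4OHT (adjusted p = 0.96), and Apod, a lipocalin, at -0.57 (adjusted p = 0.96) with 4OHT arrays 3.76 and 4.55 far apart. With Shld1 Pnpla3, a lipid droplet enzyme, was at 0.33 and Apoc1, an apolipoprotein encoded beside Apoe, at 0.21 (adjusted p = 1.00 for both). Vegfa was lower with Shld1 too, at -0.23.

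Receptor partners and cofactors, 15 of 18 measured, were 7 higher and 8 lower with 4OHT (median -0.004), 5 and 10 with Shld1 (median -0.054). Tbl1x, Tbl1xr1 and Hdac3, parts of the corepressor complex that unliganded receptors recruit, had 4OHT differences of -0.20, -0.17 and -0.21 (adjusted p = 0.96 for each). With Shld1 Tbl1xr1 was at -0.39 and Hdac3 at -0.27 (adjusted p = 1.00 for both). All 15 were short of the threshold in each comparison.

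Genes that make or clear oxysterols and desmosterol, the ligands, came to 15 of 16. With 4OHT 5 were higher and 10 lower (median -0.075), and with Shld1 10 were higher and 5 lower (median 0.026). Hsd17b7, Sc5d and Dhcr7, enzymes of the last steps of cholesterol synthesis, were at -0.47, -0.47 and -0.35 with 4OHT (adjusted p = 0.96 for each). With Shld1 they were at -0.30, -0.24 and -0.0055. Ebp, the sterol isomerase, was at 0.35 with Shld1 (adjusted p = 1.00), its arrays reading 5.57 and 5.26 against 5.18 and 4.96 on the untreated arrays. On the 4OHT arrays it read 5.33 and 5.22. The protein is known as a binding site of tamoxifen.

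SREBP2 target genes, the cholesterol synthesis set, gave the most one-sided counts. Of 13 measured of 17, all were lower with 4OHT than on the untreated arrays, with a median of -0.28, and 12 had both 4OHT arrays below both untreated arrays, beside 20.4% of all genes. With Shld1 4 were higher and 9 lower (median -0.024). The means of the 13 were 7.04 and 7.13 on the untreated arrays, 6.71 and 6.85 with 4OHT, and 7.13 and 6.95 with Shld1. The lowest, 4OHT replicate 1, is an array of narrower range. It was the lowest of the 6 arrays for 28.7% of the genes above background. Idi1, Fdps and Msmo1 were at -0.49, -0.41 and -0.47 with 4OHT (adjusted p = 0.96 for each, limma), so 0 of the 13 were called, beside 0% of all genes, and 5 had an unadjusted p under 0.05, beside 995 genes or 4.99% of all. The count of 13 was the same under quantile normalization, cyclic loess and centring on the 75th percentile, with medians of -0.198, -0.197 and -0.204. Among 7 genes of SREBP processing, Insig1, which holds SREBPs back when sterols are ample and is itself an SREBP target, read 8.40 and 8.41 on the untreated arrays, 8.04 and 8.07 with 4OHT, and 8.28 and 8.34 with Shld1 (4OHT difference -0.35, adjusted p = 0.96). Srebf2 was at -0.30 with 4OHT (adjusted p = 0.96). Its intron holds miR-33, a known repressor of Abca1, whose precursor had a mean of 1.86, below the background level. The mature miRNA is shown because Abca1 is its best known target, with the seed (bases 2 to 8) in capitals, from the RefSeq table of GRCm38.p6 at chr15:82198127-82198147 (plus strand).
miR-33-5p: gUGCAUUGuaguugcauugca
Array values of a precursor do not measure the mature miRNA.

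**Figure D3:**
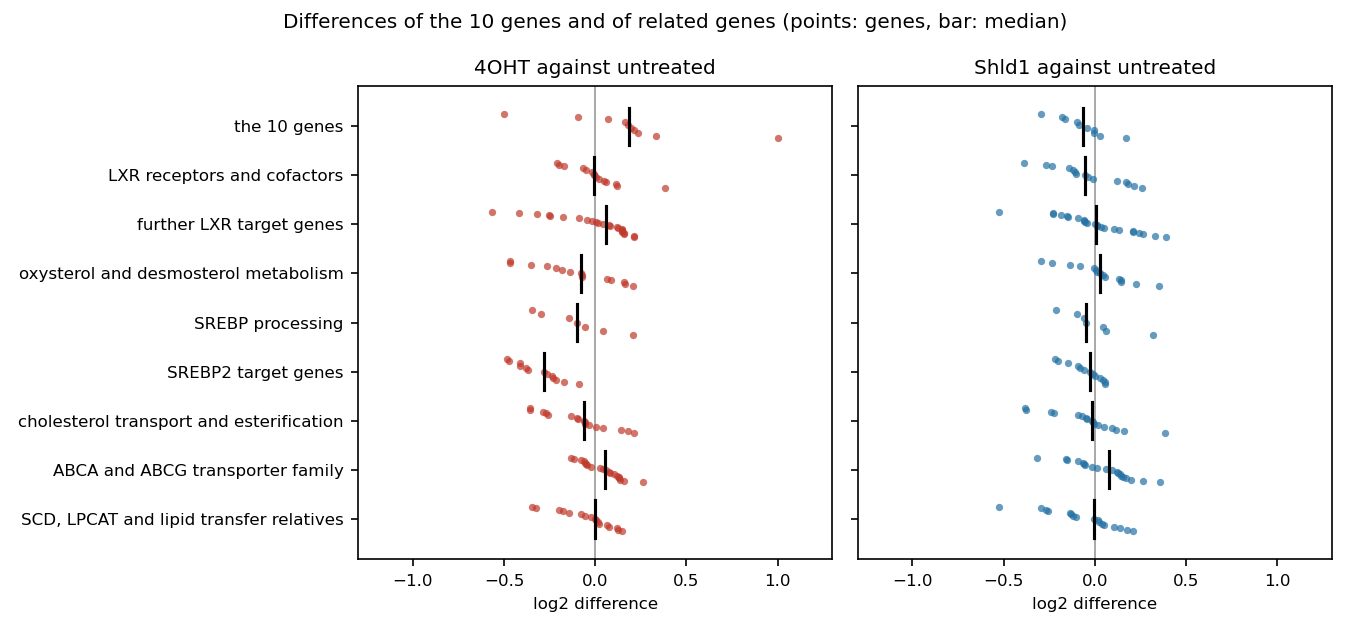
Log2 difference of 4OHT (left) and of Shld1 (right) from untreated cells for the 10 genes and 8 lists of related genes; each point is a gene and the bar is the median of its row. With 4OHT the medians are 0.19 for the 10 genes and -0.28 for the SREBP2 target genes, all 13 of which lie below 0, and with Shld1 all medians lie between -0.07 and 0.08.

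Other genes of cholesterol transport (17 of 18) had 5 higher and 12 lower with 4OHT (median -0.06). Vldlr, Scarb1 and Nceh1, a lipoprotein receptor, the high-density lipoprotein receptor and a cholesterol ester hydrolase, were at -0.36, -0.36 and -0.29 (adjusted p = 0.96 for each). With Shld1 they were at -0.07, 0.05 and -0.24. Tspo, a mitochondrial cholesterol-binding protein, read 6.72 and 6.62 on the untreated arrays, 6.27 and 6.53 with 4OHT, and 7.11 and 7.01 with Shld1. It was the gene of this list furthest apart between the agents, at -0.66 for 4OHT against Shld1 (95% interval -0.99 to -0.32, adjusted p = 0.84).

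Relatives of the 10 genes were read beside them. Of 20 other ABCA and ABCG transporters, 5 were above background, and 12 of the 20 were higher and 8 lower with 4OHT (median 0.052). Abca7, a close relative of Abca1, was at -0.13 with 4OHT (adjusted p = 0.96) and at 0.26 with Shld1 (adjusted p = 1.00). Abca3, a lung surfactant transporter, was at 0.13 and Abcg2, a drug exporter, at 0.11 with 4OHT (adjusted p of 0.96 and 0.98). A list of relatives of the desaturases, acyltransferases and transfer proteins had 17 genes measured, 10 of them above background. It also held apolipoproteins and the miR-33 precursor, which was below background and at -0.0007 with 4OHT. Of the 17, 8 were higher and 9 lower with 4OHT (median -0.001). Fads2, another desaturase, was at -0.32, Mboat2, another acyltransferase, at -0.20 and Lpcat1, of a different acyltransferase family, at 0.15 (adjusted p = 0.96 for each). With Shld1 they were at -0.12, -0.26 and -0.10.

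The genes most like Abca1 were sought over the 6 arrays among 12814 others above background, by the root mean square difference between log2 profiles that had each been centred on their own mean. The median over these genes was 0.471, and a flat profile would lie 0.446 from Abca1. The nearest were Gm10603 at 0.149, Olfr401 at 0.194, Cfap77 at 0.204, Msgn1 at 0.206 and Zfp111 at 0.209. Their 4OHT differences from untreated were 0.80, 0.85, 1.12, 0.65 and 0.57. Their highest untreated level was 4.76 (Olfr401), beside the background level of 3.73. Cfap77 read 3.701 and 3.499 on the untreated arrays, both under that level, and Gm10603 3.849 and 3.635. The genes had been kept by their mean over all 6 arrays. None of the nearest genes is in the lists above.

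Among the other 9 genes, Scd2 was nearest to Abca1, at rank 75 (0.294), then Apoe at rank 459 (0.352), Srebf1 at 509 (0.355), Pltp at 620 (0.362) and Scd1 at 1078 (0.382). Nr1h3 was at rank 2742 (0.422), Abcg1 at 5973 (0.466), Mylip at 7753 (0.489) and Lpcat3 at 12651 (0.661). These distances rest on 6 arrays and on groups with the 4OHT pair apart, and Abca1 was chosen for that separation, so they describe these arrays and carry no test.

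**Figure D4:**
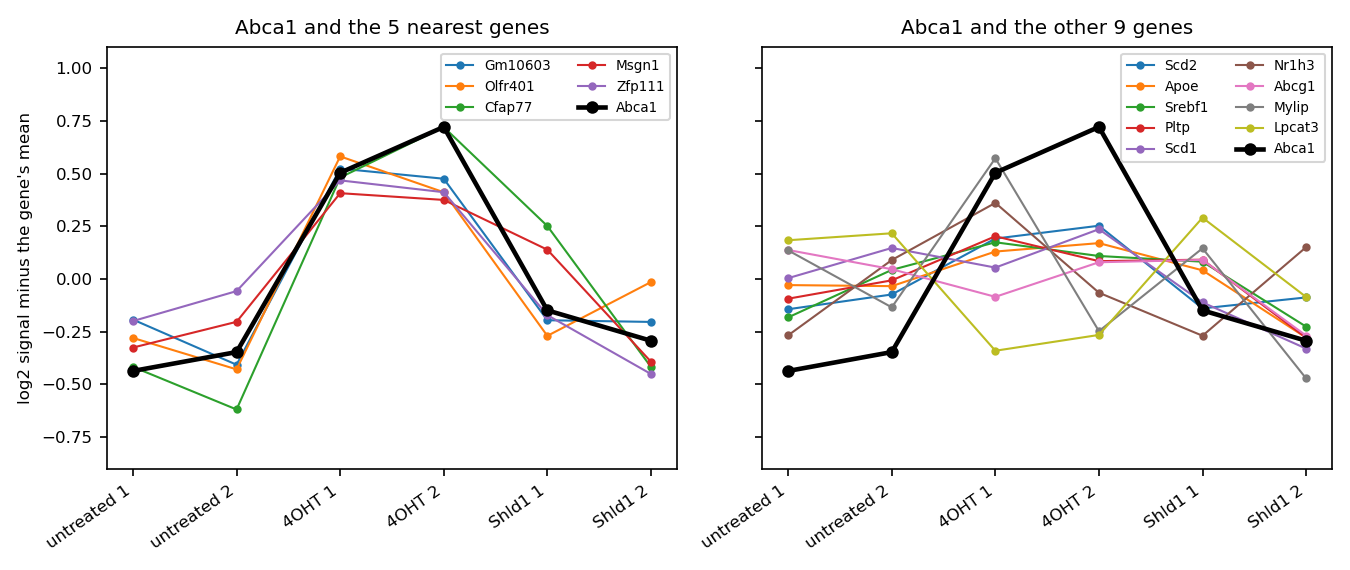
Log2 signal minus the gene's own mean on each of the 6 arrays, for Abca1 (black, both panels), the 5 genes nearest to it (left) and the other 9 genes (right). The 5 nearest genes are high on both 4OHT arrays; among the other 9, Scd2 comes nearest in shape at 0.294, with a smaller range, and Lpcat3 has the opposite course.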

How the data were processed

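Single-colour Affymetrix arrays were hybridised with biotin-labelled total RNA from 6 samples, 2 per group. The deposited table held log2 values for 35556 probe sets, as read from their range of 0.80 to 14.0. The authors' background correction, summarization and normalization are not given in the sources used here; per the submitters' processing notes limma 3.14 was used, with no role stated. Values were used as deposited. The platform annotation named probe sets: 21789 had 1 symbol, 1621 several and 12146 none, and the brightest was taken for the 999 genes with over 1, which left 19938 genes. Group means over all 6 arrays were fitted with limma 3.58.1 (R 4.3.3), with empirical Bayes moderation (3 residual and 6.77 prior degrees of freedom) and two-sided p-values adjusted by Benjamini-Hochberg over all genes. The step was tested on simulated data. The number of arrays limits the precision: the median standard error was 0.16, and an exact permutation test of 2 against 2 cannot go below 0.333, so none was used. The 10 genes and all lists were chosen with earlier results of these data known. All 10 are named, with up to 3 genes above background per list and comparison (largest absolute moderated statistic) and the 5 nearest to Abca1. Rxra, Rxrg, Cd68 and the miR-33 precursor were named outside this rule, after their values were seen. Alternatives were other moderation, scaling, filters and groupings, and leaving out arrays. Motifs were searched with Python 3.11.15.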

Additional observations from a re-analysis of the deposited data

How the results depend on the processing

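With 2 arrays a group, precision is limited: half-widths of the 95% intervals of the 9 tested genes ran from 0.31 to 0.62. Nr1h3 was below the background level on 3 arrays. Over 17 settings, 472 of 507 values of the 10 genes kept their direction and 35 reversed. The 507 include those of Abca1, which was chosen on its difference and was not set against the threshold. Of the values of the 9 tested genes 0 passed it. The cause of the reversals was not tested. Many of these values could not reverse. Other moderation, the filter, array weights, the replicate block and fitting only the groups compared left each difference unchanged to within rounding. So did the mean of all probe sets, as each gene had 1, and leaving out an array outside the comparison. Abca1 lay at 0.90 to 1.11 for 4OHT against untreated, the difference it was chosen on. It lay at 0.10 to 0.24 for Shld1 against untreated and at 0.72 to 0.94 for 4OHT against Shld1. Leaving out the dimmest 40% of genes drops Nr1h3, so it gives no count of the 10. Calls over all genes stayed at 0 in each comparison, except that an intensity trend gave 1 for 4OHT against Shld1 (Snora62).

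The replicate numbers did not pair the arrays (correlations of deviations of 0.05, -0.079 and -0.194), and the replicate block gave 0 calls in each comparison. A crossed replicate block for 4OHT against Shld1, chosen after seeing the data, gave 7 calls.

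For Shld1 against untreated, the number of the 10 genes that were higher (2) was 5 under quantile normalization and cyclic loess, 4 under centring on the 75th percentile, 1 to 6 when each array was left out (1 without untreated replicate 1, 4 without untreated replicate 2, 6 without Shld1 replicate 2) and 6 without both arrays of narrower range, a setting added after seeing the data. That centring moved the share of all genes higher with 4OHT from 47.8% to 65.1%.

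Leaving out each array in turn, the range crossed 0 for 4OHT against untreated in Mylip (-0.2485 to 0.5718) and Scd1 (-0.0211 to 0.1606). It did so for Shld1 against untreated in Srebf1 (-0.1565 to 0.1517), Mylip (-0.472 to 0.1447), Lpcat3 (-0.2852 to 0.0906), Scd2 (-0.0405 to 0.0298), Apoe (-0.2466 to 0.073), Pltp (-0.2292 to 0.141) and Nr1h3 (-0.1805 to 0.2392). It did so for 4OHT against Shld1 in Abcg1 (-0.0938 to 0.2655), Mylip (-0.0848 to 0.7354) and Nr1h3 (-0.0056 to 0.42). Without both arrays of narrower range, reversed values were -0.2485 for Mylip (4OHT against untreated). For Shld1 against untreated they were 0.1517 for Srebf1, 0.1447 for Mylip, 0.0906 for Lpcat3, 0.073 for Apoe, 0.141 for Pltp and -0.1805 for Nr1h3. For 4OHT against Shld1 they were -0.0119 for Abcg1, -0.3932 for Mylip and -0.0063 for Pltp. Scaling reversed Srebf1 (0.0364 by quantile, 0.0408 by centring, 0.0365 by loess), Scd2 (0.0594, 0.0378 and 0.0562) and Pltp (0.005 by quantile, 0.0159 by loess) for Shld1 against untreated.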
